A study of Mus musculus with 38 samples.

Results

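The comparison described here is the normal change in the testis of MSM mice between 5 and 7 days post partum (dpp). MSM is an inbred strain derived from Japanese wild mice of *Mus musculus molossinus*. The members were chosen by strain and age, as the labels give them, with earlier results of these data known. They were 3 testis arrays of MSM males at 7 dpp and 3 of MSM males at 5 dpp, 6 of the 38 arrays of the series. The series as a whole profiled whole testes of MSM, of C57BL/6J (B6), of B6 strains carrying all or part of the MSM X chromosome, and of an F1 cross of such a strain. The males received no treatment, and each array held the RNA of 1 male, so the p-values measure the spread between males of an inbred strain. For comparison, 3 B6 males at 7 dpp and 3 B6 males at 5 dpp were used, and 6 males of B6-ChrXMSM, which carries the MSM X chromosome on the B6 background, entered 1 test.

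Within the first week after birth the seminiferous cords of the mouse testis hold only immature Sertoli cells and the first germ cells, the spermatogonia. Retinoic acid then drives a part of the spermatogonia to differentiate. These cells express the receptor KIT and the retinoic acid-induced gene *Stra8*, divide several times, and later enter meiosis, in which homologous chromosomes are held together by the synaptonemal complex. Sertoli cells of this age still divide and secrete anti-Müllerian hormone and inhibin, while the interstitium holds Leydig cells, endothelium, macrophages and matrix-producing fibroblasts. In RNA of whole testes, fewer cells of a type and less RNA per cell cannot be told apart.

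Genes of meiotic entry and of the synaptonemal complex carry the rise described below. As a view of their regulatory sequence, the promoters of 4 of them are shown, each as 250 bases before and 50 bases after the start of the gene in RefSeq (GRCm38.p6), 5′ to 3′ on the strand of the gene. *Meioc* lies at chr11:102665335-102665634 and *Sycp3* at chr10:88459337-88459636, both on the plus strand. *Sycp1* lies at chr3:102936051-102936350 and *Tex12* at chr9:50561219-50561518, both on the minus strand. Capitals mark the E-box CACGTG and the E2F6 site TCCCGC or its reverse complement GCGGGA, both motifs of known repressors of germ cell genes in other tissues.
Meioc: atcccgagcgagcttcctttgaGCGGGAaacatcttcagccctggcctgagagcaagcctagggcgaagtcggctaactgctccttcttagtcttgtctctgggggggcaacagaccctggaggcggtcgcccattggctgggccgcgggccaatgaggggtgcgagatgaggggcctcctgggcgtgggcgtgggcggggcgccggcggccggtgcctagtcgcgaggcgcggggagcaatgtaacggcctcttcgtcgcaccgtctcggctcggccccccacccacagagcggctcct
Sycp3: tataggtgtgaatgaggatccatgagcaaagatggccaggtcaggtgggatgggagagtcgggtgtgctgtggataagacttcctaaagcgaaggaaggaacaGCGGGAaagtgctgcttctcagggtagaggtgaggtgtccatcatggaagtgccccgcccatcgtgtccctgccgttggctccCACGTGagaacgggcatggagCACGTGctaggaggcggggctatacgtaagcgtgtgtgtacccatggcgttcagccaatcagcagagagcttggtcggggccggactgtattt
Sycp1: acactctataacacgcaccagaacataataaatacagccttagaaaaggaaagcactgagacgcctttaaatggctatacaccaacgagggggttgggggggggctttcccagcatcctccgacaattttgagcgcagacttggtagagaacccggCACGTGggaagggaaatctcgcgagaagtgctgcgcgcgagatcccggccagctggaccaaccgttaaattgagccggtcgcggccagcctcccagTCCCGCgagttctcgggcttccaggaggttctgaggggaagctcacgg
Tex12: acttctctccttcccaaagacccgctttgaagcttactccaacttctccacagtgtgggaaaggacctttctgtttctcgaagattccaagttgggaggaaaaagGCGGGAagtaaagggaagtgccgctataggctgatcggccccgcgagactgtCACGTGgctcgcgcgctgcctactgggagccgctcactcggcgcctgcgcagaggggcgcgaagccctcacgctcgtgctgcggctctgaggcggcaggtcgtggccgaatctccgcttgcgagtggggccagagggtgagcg
Of the 20 genes of the meiotic lists that were called higher at 7 dpp in MSM, 18 had a promoter in the table. The E-box stood in 7 of the 18 (38.9%), beside 7.24% of 27025 promoters of the same length, and the E2F6 site in 10 of the 18 (55.6%), beside 20% of all. At least 1 of the motifs stood in 11 of the 18 (61.1%), beside 25.2% of all. *Stra8*, *Dmrtb1*, *Dazl*, *Sohlh2*, *Sycp2*, *Syce1* and *Syce3* held neither. Of the printed promoters, *Sycp3* holds 2 E-boxes and 1 E2F6 site, *Sycp1* and *Tex12* 1 of each, and *Meioc* 1 E2F6 site and no E-box. These matches describe letters and not binding. Motifs were not counted in the uncalled genes of the same lists, and the promoters were not matched in base composition. A link of the motifs to the rise was not tested.

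Before the genes are given, the MSM arrays have to be described, because their control probe sets stood apart, most of all at 5 dpp. For the 5′ part of 18S rRNA, the log2 signal averaged 9.47 ± 0.06 in MSM 7 dpp testes and 6.96 ± 0.07 in MSM 5 dpp testes (SD, n = 3 each), whereas B6 testes had means of 10.2 at 7 dpp and 10.4 at 5 dpp. The mean of the 9 hybridization spike-in probe sets, which are added in fixed amounts, was 6.59 ± 0.12 at 7 dpp and 6.09 ± 0.04 at 5 dpp in MSM (SD, n = 3 each), and the 3′ probe set of *Gapdh* was at 9.28 ± 0.01 at 7 dpp and 10.04 ± 0.04 at 5 dpp. In B6 the same pair of means was 6.36 at 7 dpp and 6.53 at 5 dpp for the hybridization spike-ins. The mean of the 12 poly-A spike-in probe sets was 4.15, 4.42 and 4.28 in the MSM 7 dpp arrays. The highest of the 17 other 7 dpp arrays was at 4.06. In the MSM 5 dpp arrays the poly-A mean was 3.79, 3.67 and 3.69, and the lowest of the 15 other 5 dpp arrays was at 3.94. All 3 MSM 5 dpp arrays were below all 17 arrays of other 7 dpp testes for 18S rRNA and above all 32 arrays of other strains for *Gapdh*. Of the probe sets called between the MSM ages, 38.1% had all 3 MSM 5 dpp arrays outside the range of those 32 arrays while the MSM 7 dpp arrays were not all outside it, and 17.3% showed the reverse. The MSM 5 dpp arrays alone were outside for 699 of the 1224 lower calls, which was most of them. They alone were outside for 264 of the 1303 higher calls and for 2955 of all 17162 probe sets kept. The MSM 7 dpp arrays alone were outside for 92 of the lower calls, 346 of the higher calls and 1999 of all probe sets kept. Whether hybridization or RNA quality plays a part in the changes was not tested, and in these 6 arrays it cannot be told apart from age. The change in B6, from arrays that share none with MSM, is therefore given beside the genes described with their values in each male.

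**Figure D1:**
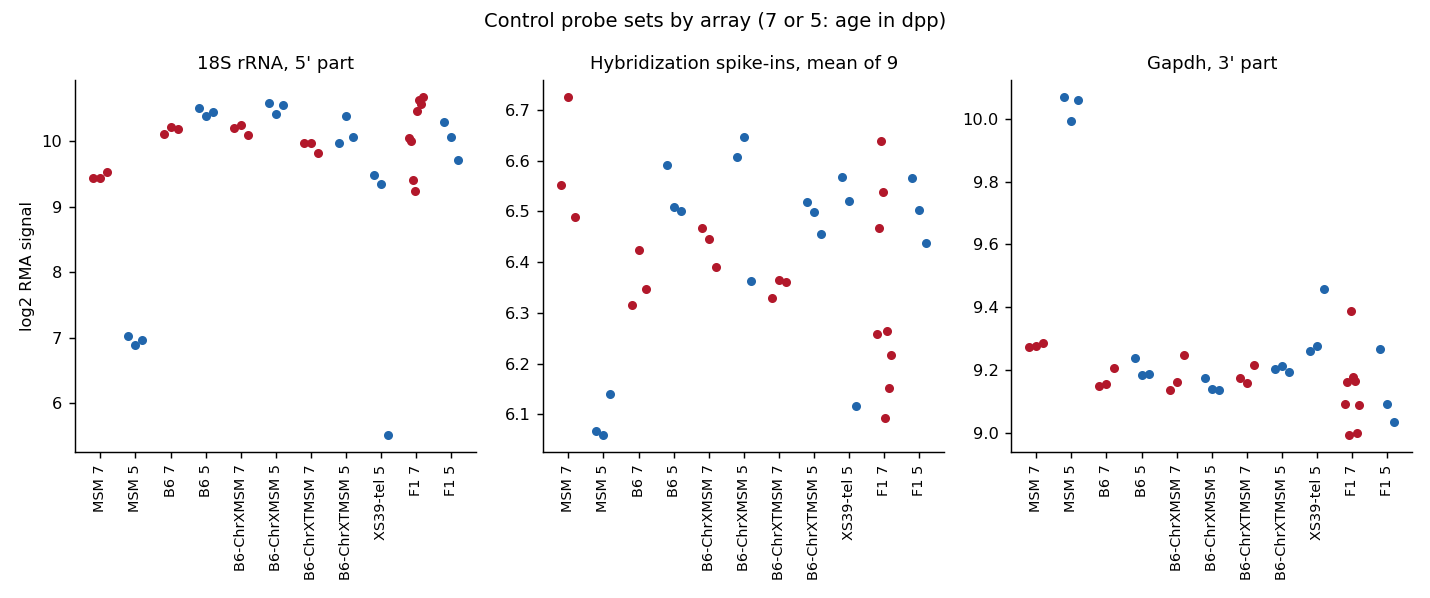
Log2 RMA signal of 3 sets of control probe sets in each of the 38 arrays (points), by strain and age, red for 7 dpp and blue for 5 dpp; F1 stands for (B6-ChrXTMSM x B6-Chr1MSM)F1. The 3 MSM 5 dpp arrays lie near 6.96 for 18S rRNA and near 10.04 for *Gapdh*, apart from MSM 7 dpp at 9.47 and 9.28. One XS39-tel array is also low for 18S rRNA.

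Of the 17162 probe sets kept, 14.7% differed between the ages in MSM, 1303 (7.59%) being higher and 1224 (7.13%) lower at 7 dpp than at 5 dpp. They belonged to 1119 and 1086 of 10355 genes, and with 1 probe set a gene 554 were higher and 793 lower. A probe set was kept where the mean signal of at least 1 age exceeded 10 on the linear scale. Calls were made at 1.5-fold or more, with limma's p-value below 0.05 after Benjamini-Hochberg adjustment. A change of 2-fold or more was seen in 243 of the higher and 238 of the lower probe sets. The ages did not overlap at 60.5% of all probe sets kept. In B6, 699 of 16822 probe sets (4.16%) were higher and 708 (4.21%) lower at 7 dpp, 8.36% in all. Of the MSM calls, 511 were also called in the same direction in B6, which is 20.2% of the MSM calls and 36.3% of the B6 calls, and 10 were called in the opposite direction. Among these 511, the MSM 5 dpp arrays alone stood outside the other strains at 72.

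Many genes of germ cells rose. The lists of germ cell genes together held 151 genes, of which 125 were on the array and 95 passed the filter. These lists were chosen with earlier results of these data known and hold genes that the study names, so their shares are a description. Of these 95, 37 (38.9%) were higher at 7 dpp, beside 7.59% of all probe sets, and 1 (1.05%) was lower, beside 7.13%. The median log2 fold change was 0.48, against 0.05 over all probe sets kept. Because a gene can pass the filter through its high age alone, the count was also taken over the 86 genes above the filter at both ages, of which 33 were higher and none lower. Of the 37, 1 had the MSM 5 dpp arrays alone outside the range of the other strains, 14 had the MSM 7 dpp arrays alone outside it and 22 had neither. Over all 1303 higher calls, the MSM 5 dpp arrays alone were outside in 264 and the MSM 7 dpp arrays alone in 346. In B6, 32 of the 37 were also called higher. Here and in the lists below, each gene stands by its kept probe set of highest mean, and other probe sets of a gene can differ. The shares of all probe sets, 7.59% higher and 7.13% lower, are the base for every list but count several probe sets for some genes. With 1 probe set a gene, 554 genes were higher and 793 lower of 10355, so that lower calls were the more frequent.

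Among genes of meiotic entry, 7 of 14 kept were higher and none lower, with a median of 0.61. *Meioc*, whose product is required for germ cells to leave the mitotic cycle and go through meiotic prophase, had log2 signals of 4.43, 4.69 and 4.13 in the MSM 7 dpp testes and of 1.28, 0.74 and 1.78 in the MSM 5 dpp testes. The ages were far apart, and *Meioc* had the largest rise of all named genes, 8.86-fold (log2 3.15, SE 0.24, adjusted p = 4.08e-05 by limma). Its level at 5 dpp was below the expression filter, so that the size of the rise depends on a weak signal, and in B6 the log2 change was 2.80. *Stra8*, the target of retinoic acid needed for meiotic initiation, had 6.76, 7.04 and 6.77 at 7 dpp, against 5.87, 5.39 and 5.80 at 5 dpp. It rose 2.25-fold in MSM (log2 1.17, SE 0.13, adjusted p = 0.000225) and by log2 1.71 in B6. *Rbm46* and *Ythdc2*, which encode RNA-binding proteins acting with MEIOC or in the same step, rose by log2 1.08 and 0.64. *Dmrtb1*, a regulator of the switch between mitosis and meiosis, rose by 1.30. The general dimerisation partner *Max* and the repressor *E2f6* were not called, with log2 changes of -0.29 and -0.26.

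The synaptonemal complex and meiotic cohesin list had 10 of 16 kept genes higher, none lower and a median of 0.77 (1.20 in B6). *Sycp3*, a component of the lateral element, had 6.19, 6.17 and 6.01 at 7 dpp and 5.33, 4.72 and 5.25 at 5 dpp, and rose 2.03-fold (log2 1.02, SE 0.15, adjusted p = 0.000716). The change in B6 was 1.71. *Sycp1*, the transverse filament, had 6.96, 7.13 and 6.83 at 7 dpp, against 6.14, 5.54 and 6.06 at 5 dpp. Its rise was 2.09-fold (log2 1.06, SE 0.16, adjusted p = 0.0007), beside 1.53 on the log2 scale in B6. In both genes the lowest 7 dpp male was above the highest 5 dpp male, and replicate 2 was the lowest of the 5 dpp males. *Smc1b*, the meiotic form of a cohesin subunit, had 6.38, 6.42 and 6.37 at 7 dpp, against 5.34, 5.14 and 5.43 at 5 dpp (log2 fold change 1.08, SE 0.09, adjusted p = 5.12e-05), and in B6 the change was 1.21. *Sycp2*, *Tex12*, *Syce1*, *Syce3* and *4930447C04Rik* (also known as *Six6os1*) rose by 0.71 to 1.17. Without MSM 5 dpp replicate 2, *4930447C04Rik* and *Hormad1*, an axis protein, fell under the fold limit, at 0.50 and 0.54, and *Hormad1* also without MSM 7 dpp replicate 2, at 0.49. Of the cohesin subunits that every dividing cell uses, *Smc3* had a log2 change of 0.03, *Smc1a* of -0.02 and *Rad21* of -0.08, none of them called. However, 1 of the 3 probe sets of *Smc1a*, a dimmer one, was called higher, at 1.03. The germ cell cohesin *Stag3* was at 0.04 in MSM and at 1.34 in B6.

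Of 30 genes of meiotic recombination, 11 passed the filter and 3 of these were higher, beside 7.59% of all probe sets. A further 8 that are on the array were below the filter at both ages, among them *Spo11*, *Prdm9* and *Msh4*, which act within meiotic prophase. *Dmc1*, the meiotic strand-exchange protein, had 4.13, 4.01 and 4.10 at 7 dpp and 3.402, 3.532 and 3.513 at 5 dpp (log2 fold change 0.59, SE 0.07, adjusted p = 0.000342). In B6 it was at 0.27. *Rec114* and *M1ap* had changes of 0.65 and 0.60. The fold changes of *Dmc1* and *M1ap* lay just above the 1.5-fold limit and fell below it when certain single males were left out, down to 0.55 and 0.47 on the log2 scale, as did that of *Rec114*, at 0.48 without MSM 5 dpp replicate 2.

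**Figure D2:**
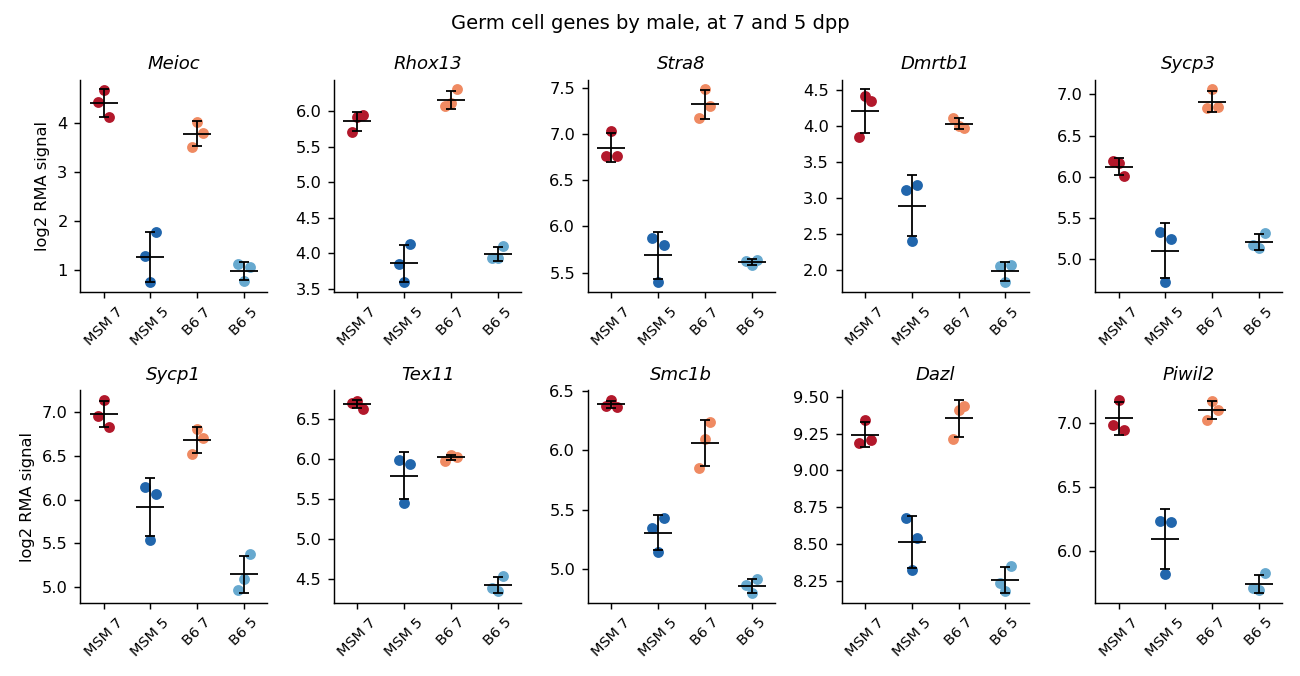
Log2 RMA signal (y axis, its own range in each panel) of 10 germ cell genes in each male (points), with the mean and SD of each group of 3 (bars), for MSM at 7 and 5 dpp and B6 at 7 and 5 dpp. In every panel the 3 MSM 7 dpp males lie above the 3 MSM 5 dpp males; *Meioc* shows the widest gap, with means of 4.42 and 1.27.

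Differentiating spermatogonia were represented by 11 kept genes, of which 6 were higher and none lower, with a median of 0.71 in MSM and 1.48 in B6. Besides *Meioc*, *Stra8*, *Sycp3* and *Dmrtb1*, these were *Rhox13* and *Sohlh2*. *Rhox13*, an X-linked homeobox gene that retinoic acid induces in spermatogonia, had 5.70, 5.92 and 5.95 at 7 dpp, against 3.85, 3.60 and 4.13 at 5 dpp. It rose 4-fold (log2 2.00, SE 0.13, adjusted p = 2.81e-05), and the change in B6 was 2.17. *Sohlh2*, a transcription factor of differentiating spermatogonia, rose by 0.71, whereas its partner *Sohlh1* had a change of 0.58 that stayed under the fold limit (adjusted p = 0.00263). *Kit*, the defining receptor of these cells, had 6.46, 6.52 and 6.44 at 7 dpp and 6.33, 6.17 and 6.38 at 5 dpp. The *Kit* values of the ages did not overlap but were close, and the gene was not called in MSM (log2 fold change 0.18, SE 0.08, adjusted p = 0.0853). In B6 the *Kit* change was 1.12.

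In the list of undifferentiated spermatogonia, 2 of 17 kept genes were higher, 1 was lower and the median was -0.11. These counts are near the shares of all probe sets (7.59% higher and 7.13% lower), so the genes below describe single members and not the list. *Neurog3*, a marker of progenitors about to differentiate, had 4.86, 4.90 and 4.91 at 7 dpp, against 3.93, 3.73 and 3.96 at 5 dpp (log2 fold change 1.02, SE 0.08, adjusted p = 5.26e-05). Its B6 change of 1.41 came from levels of 3.32 at 7 dpp and 1.91 at 5 dpp, below the filter at both ages. *Taf4b*, a germ cell subunit of TFIID, rose by 0.89. *Egr4*, a target of GDNF signalling in these cells, fell by 0.65 and was the only gene of the germ cell lists called lower at its probe set of highest mean; without MSM 5 dpp replicate 3 its change of -0.58 missed the fold limit. The stem cell genes *Gfra1*, *Id4*, *Etv5* and *Ret* had log2 changes of -0.28, -0.11, -0.32 and -0.49, none of which was called; the dimmer of the 2 probe sets of *Ret* was called lower, at -0.73.

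A part of the RNA regulators and transposon silencing genes of germ cells rose. Of 20 kept genes of the PIWI and piRNA pathway, which silences transposons in germ cells, 8 were higher and none lower, with a median of 0.50 (0.96 in B6, where 16 were higher). *Piwil2* had 6.99, 7.18 and 6.94 at 7 dpp, against 6.23, 5.82 and 6.23 at 5 dpp (log2 fold change 0.94, SE 0.12, adjusted p = 0.000392), beside 1.36 in B6. *Tdrkh*, *Btbd18*, *Rnf17*, *Exd1*, *Tdrd9*, *Piwil4* and *Tdrd7* rose by 0.72 to 1.08. *Mael* and *Tex15* stayed under the fold limit, at 0.44 and 0.47. Of 12 kept genes of germ cell identity, 5 were higher, and *Dazl*, an RNA-binding protein needed throughout germ cell development, had 9.18, 9.34 and 9.21 at 7 dpp and 8.68, 8.33 and 8.54 at 5 dpp (log2 fold change 0.73, SE 0.10, adjusted p = 0.000524), beside 1.10 in B6. *Tex13b*, *Tex101*, *Cpeb1* and *Elavl2* rose by 0.74 to 1.36. *Ddx4*, expressed in all germ cells, was at 0.37 and was not called.

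Of 7 kept retinoid carriers and receptors 1 was higher and 1 lower, and of 9 kept enzymes none was called, which is near the share of all probe sets (7.59% higher and 7.13% lower). *Crabp1*, a cytoplasmic retinoic acid-binding protein of spermatogonia, had 6.66, 6.89 and 6.64 at 7 dpp, against 5.53, 5.41 and 5.65 at 5 dpp. It rose 2.30-fold (log2 1.20, SE 0.10, adjusted p = 5.25e-05), and by log2 2.29 in B6. The median of the enzymes of retinoic acid synthesis and breakdown was 0.00, with *Aldh1a1* of Sertoli cells at -0.07 and *Cyp26b1*, which degrades retinoic acid, at 0.00. *Stra6*, the retinol uptake receptor, fell by 0.83, although its B6 change was 0.06.

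**Figure D3:**
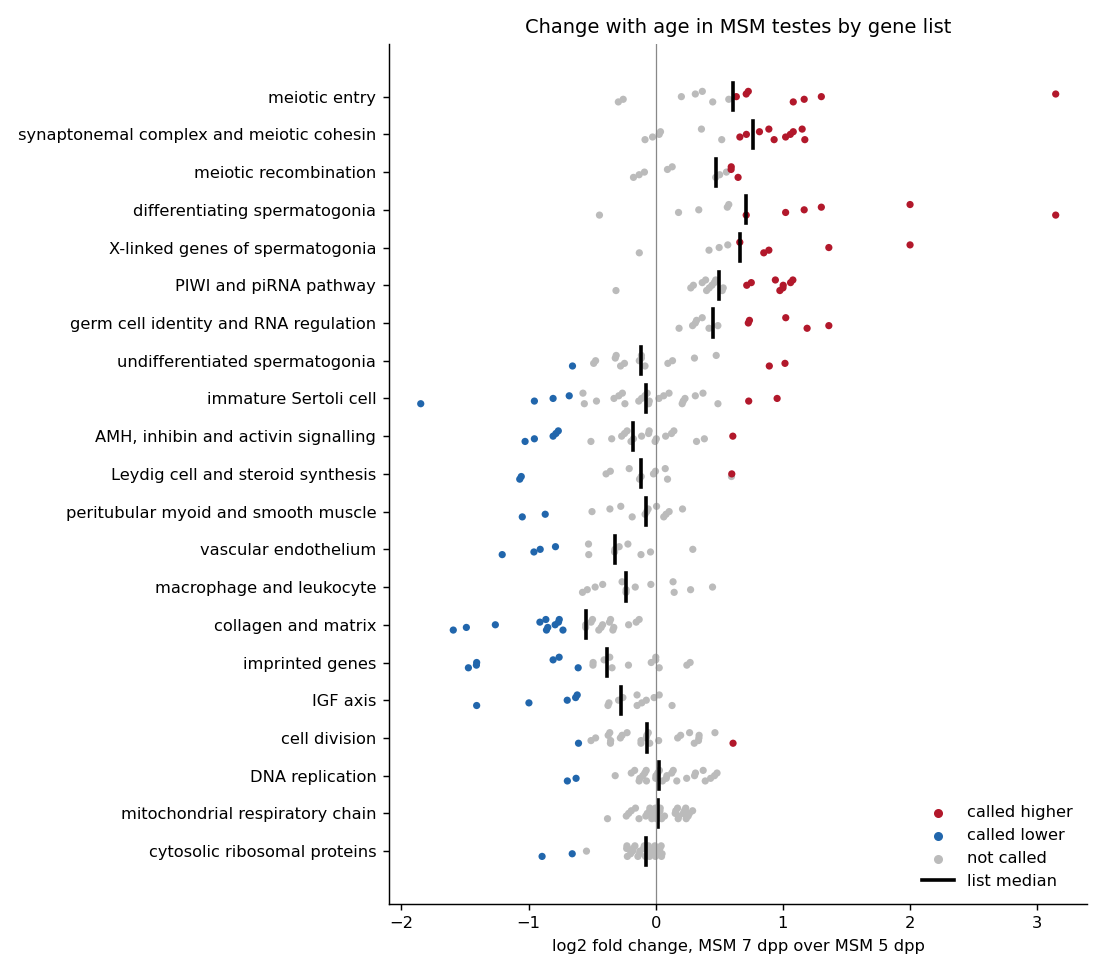
Log2 fold change of MSM 7 dpp over MSM 5 dpp (x axis) for every kept gene of 21 gene lists (points, 1 probe set a gene; red called higher, blue called lower, grey not called), with the median of each list as a black bar. The germ cell lists apart from undifferentiated spermatogonia have medians of 0.46 to 0.77, collagen and matrix has -0.55, and the mitochondrial list lies within -0.38 and 0.29 with no gene called at the probe set shown.

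Of the lists with lower genes, collagen and matrix held the most calls. Together with imprinted genes, the IGF axis, AMH and inhibin signalling and endothelium, a union chosen after the values were seen, 30 of 93 kept genes (32.3%) were lower, beside 7.13% of all probe sets, and 1 was higher. Of these 30, the MSM 5 dpp arrays alone stood outside the other strains in 8, the MSM 7 dpp arrays alone in 7 and neither in 15, and 18 were also called lower in B6. Of the 25 kept collagen and matrix genes alone, none was higher and 11 were lower. The lowest and highest changes of this list were -1.59 and -0.13, so that every kept member had a negative change. The median was -0.55 in MSM and -0.53 in B6, where 12 were lower. *Col1a1*, the main fibrillar collagen, had 7.65, 7.46 and 7.59 at 7 dpp and 8.19, 8.65 and 8.41 at 5 dpp (log2 fold change -0.85, SE 0.12, adjusted p = 0.00052), beside -0.78 in B6. *Col6a1* had 7.83, 7.68 and 7.85 at 7 dpp and 8.91, 9.23 and 9.01 at 5 dpp (log2 fold change -1.26, SE 0.10, adjusted p = 4.52e-05), and in B6 its change was -0.81. *Col4a1*, a basement membrane chain, fell by 0.73 and fibronectin *Fn1* by 0.76. *Mmp2*, a collagen-degrading protease, was also lower, by 1.57 in MSM and 0.90 in B6. *Postn* fell by 0.91 and *Col12a1* by 1.59, but both were uneven between males, as *Col12a1*, at -1.55 in B6, had 4.41, 2.87 and 4.43 at 7 dpp and 4.75, 6.46 and 5.27 at 5 dpp. Without MSM 5 dpp replicate 2 their changes were -0.57 and -1.11 and neither was called, and the same held without MSM 7 dpp replicate 2, at -0.72 and -1.07. A trended, robust variance model called neither (adjusted p = 0.116 and 0.134). *Eln*, elastin, fell by 1.49 in MSM and had a change of -0.14 in B6, a difference that the interaction test called (-1.35, adjusted p = 0.0002).

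Imprinted genes that promote or restrain growth before birth were lower in part. Of 18 kept, none was higher and 6 were lower, with a median of -0.38 (-0.54 in B6, where 9 were lower). *Dlk1*, a Notch-like ligand of immature cells, had 6.64, 6.75 and 6.67 at 7 dpp, against 8.13, 8.13 and 8.22 at 5 dpp. It fell by 1.47 on the log2 scale (SE 0.07, adjusted p = 1.78e-05), and the B6 change was -0.77. *Igf2*, the fetal growth factor, had 7.20, 7.18 and 7.25 at 7 dpp, against 8.46, 8.96 and 8.44 at 5 dpp (log2 fold change -1.41, SE 0.13, adjusted p = 9.36e-05), beside -0.88 in B6. *Mest* had 6.95, 6.93 and 6.92 at 7 dpp, against 8.22, 8.58 and 8.22 at 5 dpp (log2 fold change -1.41, SE 0.10, adjusted p = 3.79e-05), beside -1.48 in B6. In these 3 genes the males of 7 dpp lay within 0.11 of each other, and no male of 5 dpp reached them. *Meg3*, *Cdkn1c* and *Plagl1* fell by 0.81, 0.76 and 0.61, and *Plagl1* missed the fold limit without MSM 7 dpp replicate 3, at -0.57. The probe sets of *Plagl1* disagreed in size: the brightest is the one given, a dimmer one was at -1.67 and the third at 0.11. All 6 genes were also called lower in B6. *Ndn*, *Impact* and *Igf2r* were near 0, at 0.00, 0.00 and 0.03.

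The IGF axis had no gene higher and 5 of 16 kept lower, beside 7.13% of all probe sets. Besides *Igf2*, these were the binding proteins *Igfbp4*, *Igfbp3* and *Igfbp2*, at -0.997, -0.70 and -0.62, and *Igf2bp1*, which binds *Igf2* mRNA, at -0.63. All 6 kept probe sets of *Igfbp4* were called lower, by 0.62 to 1.91. The receptors were not called. *Igfbp2* was no longer called without MSM 5 dpp replicate 2, at -0.39, or without MSM 7 dpp replicate 2, at -0.58, and neither was *Igf2bp1* without MSM 7 dpp replicate 3, at -0.54.

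**Figure D4:**
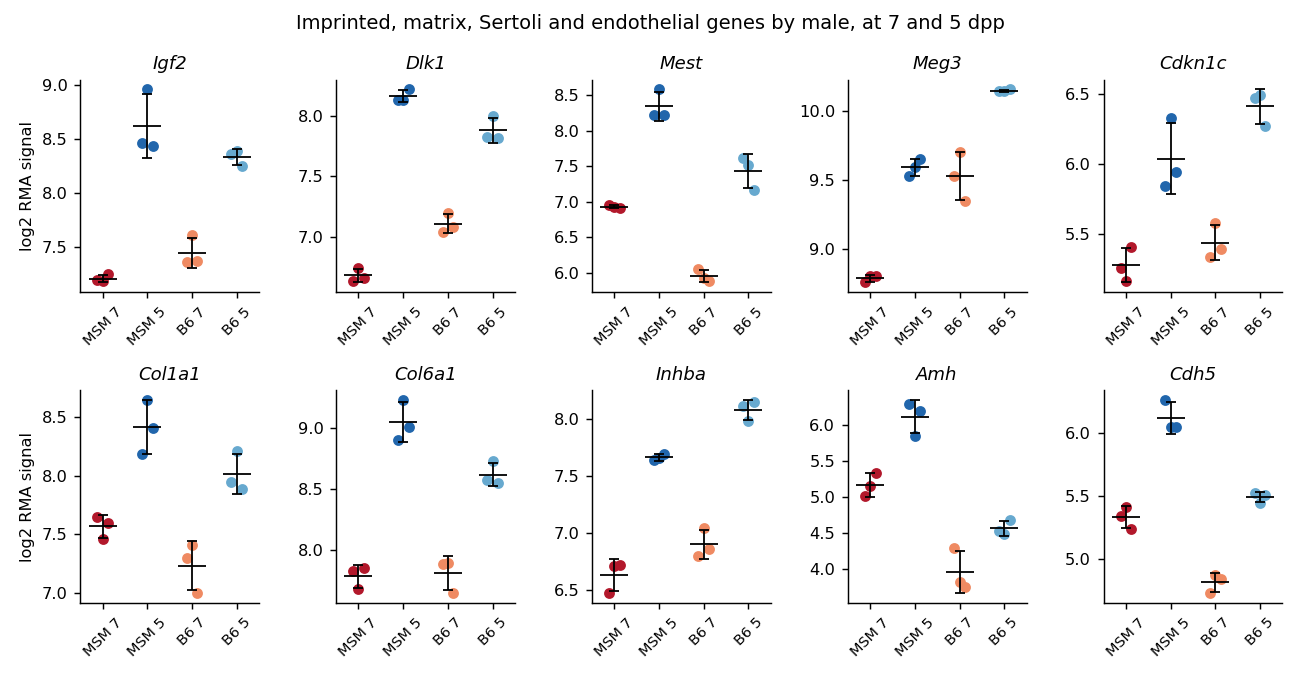
Log2 RMA signal (y axis, its own range in each panel) of 10 imprinted, matrix, Sertoli and endothelial genes in each male (points), with the mean and SD of each group of 3 (bars), for MSM at 7 and 5 dpp and B6 at 7 and 5 dpp. In every panel the MSM 7 dpp males lie below the MSM 5 dpp males; for *Dlk1* the means are 6.69 and 8.16.

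Of 28 kept markers of immature Sertoli cells, 2 were higher, a share near the 7.59% of all probe sets, and 4 were lower, beside 7.13% of all. The median was -0.08. The hormone *Amh*, which these cells produce until puberty, had 5.01, 5.15 and 5.34 at 7 dpp, against 6.30, 5.86 and 6.20 at 5 dpp. It fell by 0.95 (SE 0.13, adjusted p = 0.000469), and in B6 by 0.61. *Inhba*, the activin subunit, had 6.47, 6.71 and 6.72 at 7 dpp, against 7.63, 7.66 and 7.69 at 5 dpp (log2 fold change -1.03, SE 0.09, adjusted p = 5.75e-05), beside -1.18 in B6. The inhibin subunit *Inha* fell by 0.81 and the inhibitory *Smad6* and *Smad7* by 0.77 and 0.78. *Cldn11*, a tight junction protein of the later blood-testis barrier, rose by 0.73, and *Gata1*, which is switched on in Sertoli cells after birth, had 4.07, 4.23 and 4.23 at 7 dpp and 3.26, 3.18 and 3.22 at 5 dpp (log2 fold change 0.96, SE 0.08, adjusted p = 4.65e-05), beside 1.24 in B6. The receptor *Amhr2* rose by 0.61, but it was no longer called without MSM 5 dpp replicate 2, at 0.48, or MSM 7 dpp replicate 3, at 0.58. The lineage genes *Sox9* and *Wt1* were at 0.06 and -0.26 and the follicle-stimulating hormone receptor *Fshr* fell by 0.68. *Gata4*, a factor of Sertoli and Leydig cells, had 4.75, 4.74 and 4.85 at 7 dpp and 6.74, 6.30 and 6.85 at 5 dpp. It fell by 1.85 in MSM and had a change of -0.24 in B6, where its levels were 4.98 at 7 dpp and 5.22 at 5 dpp, and the 3 MSM 5 dpp arrays stood above every array of the other strains.

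The other cell types of the testis changed in few of their markers, apart from endothelium. Endothelial genes had 4 of 13 kept lower, *Pecam1*, *Cdh5*, *Sox18* and *Ramp2*, by 0.79 to 1.21. *Cdh5*, the cadherin of endothelial junctions, had 5.34, 5.41 and 5.24 at 7 dpp and 6.26, 6.05 and 6.05 at 5 dpp (log2 fold change -0.79, SE 0.09, adjusted p = 0.000199), beside -0.68 in B6. Among Leydig cell genes, *Nr5a1* and *Ptgds* fell by 1.06 and 1.07, *Fdx1* rose by 0.60 but was not called without MSM 7 dpp replicate 1 (0.42) or MSM 5 dpp replicate 2 (0.51), and the steroid enzymes *Cyp11a1*, *Cyp17a1* and *Hsd3b1* were at 0.08, -0.02 and -0.13. Of 14 kept genes of peritubular myoid and smooth muscle cells, *Des* and *Smtn* fell by 1.05 and 0.87. No macrophage gene of 13 kept was called at its probe set of highest mean, and 1 of 3 probe sets of *C1qb* was called lower.

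Adipose genes varied widely between males of both ages. *Cidea*, a lipid droplet protein, was the only one called, higher by 1.20. The lipid carrier *Fabp4* had 4.999, 7.27 and 4.11 at 7 dpp and 4.50, 9.13 and 6.93 at 5 dpp, so that the ages overlapped, while its change in B6 was -5.10. *Adipoq* followed the same order of males within each age. The summed linear signal of the 7 kept genes of 18 in this list was 513 to 722 at 7 dpp and 517 to 1317 at 5 dpp. MSM 5 dpp replicate 2, the male with the most adipose signal, also had the lowest 5 dpp value in 34 of the 37 germ cell genes called higher and the highest of *Igf2*, *Postn* and *Col12a1*. Without it, 33 germ cell list genes were higher and 2 lower, and 9 collagen and matrix genes were lower. The part of adjoining tissue in these results was not tested. All genes of the erythroid, epididymis and skeletal muscle lists that were on the array stayed under the filter at both ages.

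Cell division, DNA replication and housekeeping lists held no larger shares of calls than all probe sets (7.59% higher and 7.13% lower). Cyclins and CDK inhibitors held a larger share of lower genes. Of 26 kept mitotic genes 1 was higher and 1 lower, with a median of -0.07, and of 29 kept genes of DNA replication 2 were lower (*Mcm3* and *Chaf1b*), with a median of 0.03. None of 34 kept subunits of the mitochondrial respiratory chain was called at its probe set of highest mean, although *Atp5a1* and *Ndufv2* each had 1 of 3 probe sets called higher, and of 32 kept cytosolic ribosomal protein genes 2 were lower, with medians of 0.02 and -0.07. Cyclins and CDK inhibitors had 5 of 16 kept genes lower, namely *Ccnd3*, *Cdk4*, *Cdkn1a*, *Cdkn1c* and *E2f1*, and *Ccne2* higher, all by less than 0.8 on the log2 scale. Without MSM 5 dpp replicate 2, *Ccnd3*, *Cdk4* and *Cdkn1a* were not called, at -0.52, -0.58 and -0.31, nor were they without MSM 7 dpp replicate 1, at -0.58, -0.55 and -0.70.

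The largest changes over all probe sets, list members included, were set beside B6. Of the 12 genes with the largest rise, 4 were also called higher in B6: *Meioc*, *Ugt8a*, *Rhox13* and *Tmie*. *Ugt8a*, an enzyme of glycolipid synthesis, had 4.40, 4.70 and 4.57 at 7 dpp, against 2.35, 2.44 and 2.48 at 5 dpp (log2 fold change 2.14, SE 0.09, adjusted p = 1.78e-05), and in B6 the change was 1.84. *Cap1*, an actin-binding protein, had 5.06, 5.12 and 5.12 at 7 dpp, against 2.51, 2.47 and 2.82 at 5 dpp. The change was 2.50 in MSM and -0.04 in B6, whose means were 5.89 at 7 dpp and 5.93 at 5 dpp, and both probe sets of *Cap1* showed this. *Rbm39* rose by 2.00 at its leading probe set, but 9 of its 12 kept probe sets were not called, and 1 of 6 probe sets of *Kif5b* rose by 2.37 and 1 by 0.59 while the other 4 were not called. Of the 12 genes with the largest fall, 7 were also called lower in B6: *Igfbp4*, *Plagl1* (at its dimmer probe set), *Syde1*, *Adamts16*, *Col6a2*, *Col12a1* and *Mmp2*. *Adamts16*, a secreted protease, had 3.88, 3.64 and 3.86 at 7 dpp, against 5.24, 5.68 and 5.33 at 5 dpp (log2 fold change -1.62, SE 0.12, adjusted p = 4.21e-05), and in B6 the change was -2.03. *R3hdm4*, *Pcbp4* and *Ssh3* fell by 1.64, 1.57 and 1.55 in MSM, and *R3hdm4* had a B6 change of -0.24. *Pcbp4* and *Ssh3* were below the filter at both ages in B6, where a change could not be measured, and at 7 dpp in MSM. Of the 12 falls, 8 had the MSM 5 dpp arrays alone outside the range of the other strains and 1 had both ages outside. Of the 12 rises, 3 had the MSM 5 dpp arrays alone outside and 3 had both ages outside. Besides *Meioc*, the rises of *Ugt8a*, *Cap1*, *Kif5b*, *Ppp4r3a*, *Rbm39*, *Tmie*, *1810014B01Rik* and *Sdf2l1* began below the filter at 5 dpp. The sizes of these rises depend on weak signals. In 21 genes, probe sets of the same gene were called in opposite directions.

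A direct test of the difference between strains placed the age change of MSM beside that of B6. The interaction term called 1022 of 17915 probe sets (5.7%) with a more positive change in MSM and 1141 (6.37%) with a more negative one. Both this test and that against B6-ChrXMSM below use the MSM 5 dpp arrays whose control probe sets stood apart. The part of array or RNA quality in the differences was not tested. Only polymorphic probe sets that the study lists on chromosomes 1 and X were left out, and the part of others was not tested. Of the 95 germ cell list genes, 18 were more negative in MSM, and 1, *Tcl1*, was more positive. The median change of these genes was 0.48 in MSM and 0.84 in B6, and 71 of the 95 had the more positive change in B6. *Sox3*, an X-linked gene of progenitor spermatogonia, had 5.95, 6.00 and 5.94 in MSM at 7 dpp, against 6.22, 5.67 and 6.38 at 5 dpp, and changed by 1.86 in B6 (difference -1.99, SE 0.21, adjusted p = 6.99e-05). *Lin28a*, a regulator of let-7 in undifferentiated cells, had changes of 0.10 in MSM and 1.92 in B6 (difference -1.82, adjusted p = 0.000153). The B6 mean of *Lin28a* at 5 dpp, 2.22, was below the filter, so the size of the B6 rise depends on a weak signal. MSM stood above every array of the other strains at both ages. For *Stag3* the difference was -1.30, for *Tex19.1* -1.27, for *Zbtb16* -1.12 and for *Kit* -0.94. *Crabp1* rose in both strains, by 1.20 in MSM and 2.29 in B6, and the difference of -1.09 was called as well.

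In their means, more of these genes were higher in MSM than in B6, most at the earlier age. Of the 95 genes, 69 had a higher mean in MSM than in B6 at 7 dpp and 74 at 5 dpp, with median strain differences (MSM minus B6) of 0.20 at 7 dpp and 0.53 at 5 dpp. Over all probe sets kept these medians were 0.12 at 7 dpp and 0.10 at 5 dpp. *Sox3* was at 5.96 in MSM and 6.12 in B6 at 7 dpp, and at 6.09 in MSM and 4.25 in B6 at 5 dpp. *Kit* was at 6.47 in MSM and 6.44 in B6 at 7 dpp, and at 6.29 in MSM and 5.32 in B6 at 5 dpp. *Stra8* differed from this, with 6.86 in MSM and 7.33 in B6 at 7 dpp and 5.69 in MSM and 5.61 in B6 at 5 dpp, and its interaction stayed under the fold limit. No test of the levels between strains was made here, and the share of all probe sets with a higher mean in MSM was not counted. The 5 dpp levels of MSM come from the arrays whose control probe sets stood apart. The part of array or RNA quality in these levels was not tested. Probes were designed on the reference strain, and their part in level differences between strains was not tested for autosomes other than chromosome 1, where the list of polymorphic probe sets ends.

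**Figure D5:**
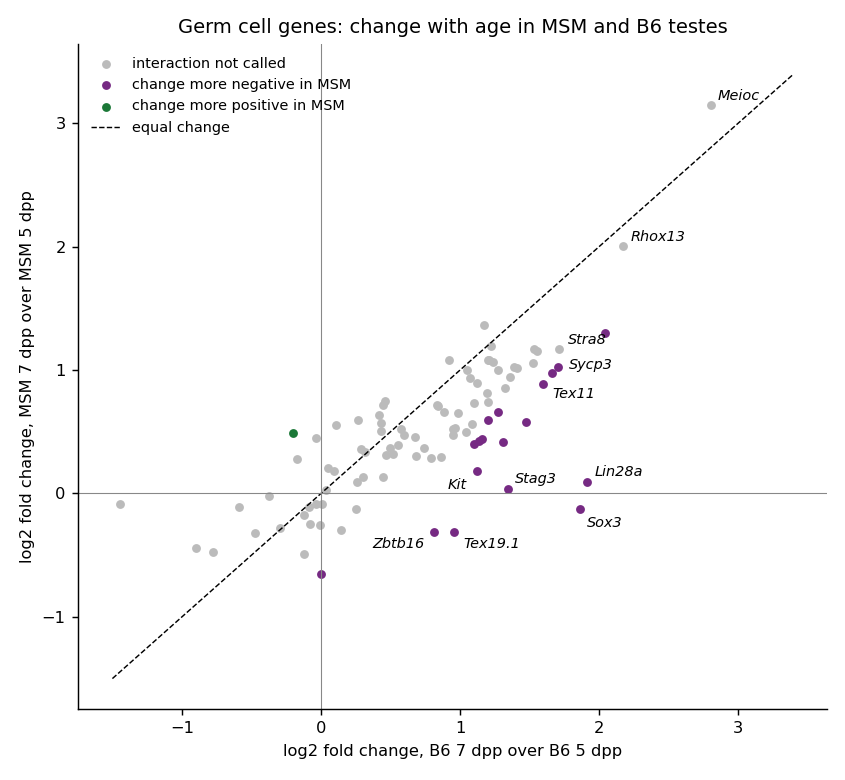
Log2 fold change of 7 over 5 dpp in B6 (x axis) and in MSM (y axis) for the 95 kept germ cell list genes (points), coloured by the interaction test, with the line of equal change dashed. Most genes lie below the line; *Meioc* and *Rhox13* lie near it, while *Sox3* and *Lin28a* changed by 1.86 and 1.92 in B6 and by -0.13 and 0.10 in MSM.

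Setting MSM beside B6-ChrXMSM, whose males carry the MSM X chromosome in a B6 background, 908 of 17885 probe sets (5.08%) had a more positive change in MSM and 1002 (5.6%) a more negative one. The median change of the germ cell list genes was 0.61 in B6-ChrXMSM. *Meioc* changed by 3.15 in MSM and by 0.15 in B6-ChrXMSM, in which it stayed at 0.59 at 7 dpp (difference 2.99, SE 0.32, adjusted p = 0.000114). *Tex19.1*, needed for repression of transposons in germ cells, changed by -0.31 in MSM and by 1.52 in B6-ChrXMSM (difference -1.83, SE 0.29, adjusted p = 0.00113).

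The X chromosome is given apart because many genes of spermatogonia lie on it; the shares are a description without a test. Of 496 kept X-linked probe sets, 60 (12.1%) were higher and 29 (5.85%) lower at 7 dpp in MSM, beside 7.46% and 7.17% of autosomal ones. Of 9 kept genes in the list named for X-linked genes of spermatogonia, 5 were higher and none lower, with a median of 0.66 in MSM and 1.31 in B6. *Stk31*, 1 of the 5, is not on the X chromosome, so the counts and medians are not of X-linked genes alone. *Tex11*, which acts in synapsis and crossing-over, had 6.70, 6.72 and 6.62 at 7 dpp, against 5.98, 5.45 and 5.93 at 5 dpp. It rose by 0.89 in MSM (SE 0.13, adjusted p = 0.000763) and by 1.60 in B6, and the difference of -0.70 was called (adjusted p = 0.00582). *Tktl1* rose by 0.85. The mRNA export factor *Nxf2* and the TFIID subunit *Taf7l* had changes of 0.50 and 0.42, which stayed under the fold limit in MSM, and were at 1.04 and 1.31 in B6. *Nxf3* and *Pou5f1*, the other genes of the study's list that are on the array, were under the expression filter at both ages.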

How the data were processed

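Testis RNA of single MSM males at 7 and 5 dpp, 3 each, was hybridized to Affymetrix whole-genome mouse arrays. The authors made the deposited log2 values with the RMA algorithm in GeneSpring GX over 38 arrays (perfect-match probes, background correction, quantile normalization, 1 value a probe set); they were used as deposited. Of 45101 probe sets, 34958 had 1 gene in the platform annotation and 34728 of these were on autosomes or on chromosome X. Of these, 981 that the study lists as polymorphic on chromosomes 1 and X were left out. Probe sets with a mean signal above 10 (linear) at 1 age or both were kept.

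Groups came from the labels. The age comparison used limma 3.58.1 (lmFit, eBayes) under R 4.3.3 (two-sided, Benjamini-Hochberg over all probe sets kept; call at adjusted p under 0.05 and 1.5-fold). Differences between strains were interaction terms over 12 arrays. The number of arrays limits the precision. On simulated data for the MSM comparison, 40.3% of 1.5-fold, 93.8% of 2-fold and 100% of 4-fold changes were recovered, with 4 wrong calls among 16773 probe sets. The 1.5-fold changes lay at the call limit, so their share depends on that limit as well as on the number of arrays. The simulated noise was drawn apart for each probe set, without a shift of whole arrays. These wrong calls therefore do not measure those of the real MSM arrays.

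The members, 36 gene lists and tests were chosen with earlier results of these data known. Named genes are the 12 largest rises and falls among called probe sets with ages that did not overlap and a higher mean above 4, called list members and those used to describe a list, genes named in the study, and the 8 largest interactions in each direction. In lists, each gene stood by its kept probe set of highest mean. Same-numbered males of MSM were different mice, and their deviations correlated at -0.227, -0.233 and -0.0827, so the numbers do not pair them. Alternatives were other filters, scalings, annotations, variance models, the replicate block and leaving out each array.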

Additional observations from a re-analysis of the deposited data

Results flagged for a closer look

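The age change differed between MSM and B6 by the interaction test for the following genes, given as the MSM change minus the B6 change on the log2 scale. The differences were largest in the positive direction for *Cbln1* (3.77), *Spink8* (3.74), *Cap1* (2.634), *Zg16* (2.38), *Kif5b* (2.14), *Rbm39* (2.13), *Gpm6a* (2.02) and *H3f3b* (2.01). In *Cbln1*, *Spink8*, *Zg16*, *Gpm6a* and *H3f3b* the larger change was that of B6, which was negative, at -3.84 for *Cbln1*. *Cbln1* and *Zg16* were below the filter at both ages in MSM, so that their change in MSM could not be measured and the difference is that of B6 over background. In *Cap1*, *Kif5b* and *Rbm39* it was the rise in MSM. *Spink8* was uneven between males and lost its call under 2 other variance models and without each of 3 males, at 3.27 without MSM 5 dpp replicate 1, 3.30 without MSM 5 dpp replicate 3 and 3.36 without B6 5 dpp replicate 2.

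In the negative direction the differences were -2.53 for *Golm2*, -2.34 for *H2-Q10*, -1.99 for *Sox3*, -1.92 for *Daam2*, -1.84 for *Hspa8*, -1.82 for *Lin28a*, -1.77 for *Ppp2r1a* and -1.60 for *Gata4*. The probe set of *Ppp2r1a* was at 1.92 and 3.61 in MSM at 7 and 5 dpp and at 8.94 and 8.86 in B6, and the other probe set of *Daam2* had an MSM change of 0.88, opposite to the -1.18 of the one listed. The brighter probe sets of *Golm2* and *Hspa8* showed no such difference, at -0.08 and 0.32 in MSM and -0.19 and 0.08 in B6. *H2-Q10* was below the filter at both ages in MSM.

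Against B6-ChrXMSM the difference was positive for *Meioc* (2.99), *Cap1* (2.50), *Kif5b* (2.12), *Rbm39* (2.11), *Ppp4r3a* (2.02), *Kif11* (1.99), *Rbbp4* (1.86) and *Phip* (1.81). It was negative for *Golm2* (-2.33), *Tex19.1* (-1.83), *Pcbp4* (-1.73), *Ppp2r1a* (-1.73), *Ssh3* (-1.69), *Gata4* (-1.68), *Daam2* (-1.54) and *R3hdm4* (-1.53). Both tests use the same MSM arrays. The probe set of *Kif11* was 0.43 in MSM and -1.56 in B6-ChrXMSM, and that of *Phip* was 0.42 in MSM and -1.39 in B6-ChrXMSM. The other probe sets of *Kif11* were at -0.61 and -0.42 in MSM, and the other 4 of *Phip* at 0.04 to 0.41.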

How the results depend on the processing

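Of the counts of calls, 144 stayed within 1.5 times the main one under other settings and 24 did not. With a filter at 32 in place of 10, the MSM comparison gave 757 higher and 720 lower, the B6 comparison 369 and 398, the interaction with B6 611 more positive and 641 more negative, and that with B6-ChrXMSM 502 and 617; fewer probe sets are tested there. With 1 probe set a gene the counts were 554 and 793, 407 and 460, 429 and 695, and 302 and 633 in the same order. With no minimum fold change they were 5048 and 3669, 4307 and 3627, 3390 and 2978, and 2466 and 2296. A second quantile normalization gave 1079 higher and 1421 lower in MSM, so that 43.2% of calls were higher, beside 51.6%; the cause was not tested. Leaving out each male gave 1165 to 1539 higher and 1182 to 1319 lower and kept 86.1% to 94.7% of the MSM calls. The replicate block gave 1303 and 1235 in MSM, and 1025 and 1136 for the interaction with B6; since the numbers do not pair the males, this is only a check. Genes rerun were the largest changes and interactions, called list members and genes named in the study. None of them reversed its direction where it was called in the main fit or in the rerun. Uncalled genes used only to describe a list were not rerun. The medians of the lists of retinoic acid enzymes, retinoid carriers, macrophages, adipose tissue, DNA methylation, niche factors and the respiratory chain changed sign under at least 1 setting, and those of the germ cell lists, matrix, imprinted genes, IGF axis and endothelium did not. Of the rerun genes and list medians together, 3424 results were the same, 66 lost a call in 26 genes, 5 gained one and 23 list medians moved. A fit over all 38 arrays did not call *Rec114*, *Igfbp2* or *Stk31* (adjusted p = 0.0594, 0.336 and 0.0852). The count of germ cell list genes called higher was 24 of 68 with the filter at 32 and 33 to 43 without single males. RNA and array quality of MSM at 5 dpp cannot be separated from age by any of these settings, and folds of weak signals stay uncertain.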

Other observations

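Immediate early genes, which many stimuli induce within minutes, had 4 of 19 kept members higher at 7 dpp in MSM (*Fos*, *Egr2*, *Atf3* and *Btg2*) and 1 lower (*Egr3*). Of all probe sets, 7.59% were higher and 7.13% lower. *Fos* had log2 signals of 5.17, 5.08 and 5.45 at 7 dpp and 3.499, 3.95 and 4.081 at 5 dpp (log2 fold change 1.39, SE 0.15, adjusted p = 0.000193 by limma), while in B6 its change was 0.32. *Egr2* was not called without MSM 5 dpp replicate 2 (0.44) or MSM 7 dpp replicate 2 (0.58), *Btg2* without replicate 3 of either age (0.53 and 0.55), and *Atf3* without any 1 of the 5 dpp replicates 1 and 2 and the 7 dpp replicate 3 (0.47 to 0.54).

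Of cholesterol synthesis genes, 1 of 20 kept was higher, near the 7.59% of all probe sets. *Stard4*, a cholesterol carrier, had 6.08, 6.05 and 5.93 at 7 dpp and 4.93, 4.71 and 5.17 at 5 dpp, with a change of 1.08 in MSM and 1.10 in B6. Among niche ligands and receptors, the receptor *Erbb3* rose by 1.08, and *Cxcl12*, the ligand that retains stem cells, and *Fgfr1* fell by 0.75 each, with B6 changes of 0.92, -0.68 and -0.48.

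Single chromosomes differed in the balance of calls in MSM. On chromosome 16, 9.52% of 620 kept probe sets were higher and 3.23% lower, and on chromosome 17, 4.16% of 770 were higher and 8.44% lower. These shares are a description without a test.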
